A study of Mus musculus with 12 samples.

Results

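The nuclear-encoded subunits of the mitochondrial respiratory chain were followed in 12 RNA libraries of mouse rod photoreceptors, the retinal neurons of dim-light vision. Members were the protein-coding genes on nuclear chromosomes whose symbols follow the naming patterns of the subunits: Nduf with the letters a, b, c, s or v for complex I, Sdha to Sdhd for complex II, Uqcr for complex III, Cox4 to Cox8 for complex IV and Atp5 for complex V. The rule and the assignment to complexes used names only and no measured value. Whether each protein works in the complex of its name was not checked. The rule found 84 of the 52962 genes in the table: by name 36 of complex I, 4 of complex II, 8 of complex III, 18 of complex IV and 18 of complex V. They carry 83 distinct symbols, because Atp5o stands for 2 gene identifiers, ENSMUSG00000022956 (called Atp5o here) and ENSMUSG00000116933.

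Retinas had been electroporated with plasmid DNA and were dissociated at postnatal day 8, and 50 to 100 intact GFP-positive rods were picked by hand for each library. The 4 groups of 3 libraries received a short hairpin RNA against mouse Csnk2a1 (shRNA mCsnk2a1), a control hairpin (shRNA Control), the expression vector pcDNA4c carrying mouse Csnk2a1 (pcDNA4c mCsnk2a1), or pcDNA4c as control (pcDNA4c Control). All 4 groups share electroporation, dissociation and selection for GFP. The strain, the age at electroporation and the promoters of the constructs are not given in the sources used here. Csnk2a1 encodes the alpha catalytic subunit of the protein kinase CK2, and the samples were made to study its action on NRL, a transcription factor that rods need to form. Below, knockdown is shRNA mCsnk2a1 against shRNA Control, and overexpression is pcDNA4c mCsnk2a1 against pcDNA4c Control. The 3 RNA samples of a group are described as independent, without saying whether they stem from different animals; p-values measure only their spread, which may be technical.

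Complexes I to IV pass electrons from NADH and succinate to oxygen, complexes I, III and IV pump protons across the inner mitochondrial membrane, and complex V, the ATP synthase, uses the proton gradient to make ATP. Complexes I, III, IV and V combine nuclear-encoded subunits with a few encoded by mitochondrial DNA, whereas complex II is wholly nuclear-encoded. Rods are among the cells with the highest oxygen use, and their mitochondria are packed into the inner segment just below the light-sensing outer segment.

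Library totals lay between 1608926 and 3567121 estimated counts, and in each arm every library with a Csnk2a1 construct had a higher total than every control. Levels are CPM (counts relative to library size, scaled with edgeR's TMM factors) for comparisons between groups, and TPM (transcripts relative to the library's sum, per length) for comparisons between genes. Csnk2a1 itself was measured at 12.0, 22.2 and 36.0 CPM in shRNA mCsnk2a1, against 66.9, 57.2 and 8.51 CPM in shRNA Control, so that the log2 difference was -0.92 (SE 0.88, edgeR adjusted p = 0.905). It was at 49.9, 145 and 122 CPM in pcDNA4c mCsnk2a1, against 86.6, 25.0 and 28.3 CPM in pcDNA4c Control, a difference of 1.18 (SE 0.88, edgeR adjusted p = 0.801). Groups overlapped in both arms, and plasmid transcripts may be among the Csnk2a1 counts of pcDNA4c mCsnk2a1. All 11 rod markers examined had counts in all 12 libraries. Their summed level was 10916 to 13127 CPM in shRNA mCsnk2a1, 4937 to 7220.2 CPM in shRNA Control, 4617 to 10685 CPM in pcDNA4c mCsnk2a1 and 4796 to 6164 CPM in pcDNA4c Control. The summed level of 11 macrophage and microglia markers stood apart in pcDNA4c Control, at 2702 to 3226 CPM with all 11 detected in each library, against 10.2 to 83.5 CPM in the other 9 libraries. In pcDNA4c mCsnk2a1 6 of these 11 were at 0, C1qa, C1qb and Lyz2 among them. In bulk samples, fewer cells of a type and less RNA per cell cannot be told apart.

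Subunit genes were broadly detected. With at least 1 estimated count as the criterion, 64 of the 84 members were present in all 12 libraries and 8 more in 11. After each library was thinned to the smallest total, 76.0 ± 3.61 members were detected in shRNA mCsnk2a1, 77.0 ± 1.00 in shRNA Control, 74.0 ± 1.73 in pcDNA4c mCsnk2a1 and 76.7 ± 0.577 in pcDNA4c Control (SD, n = 3 each). Cox6a2 and Cox8c had no count in any library, where a count of 0 allows up to 3 counts, and Cox7a1 was detected in 1 library. All members together took 0.652% ± 0.0903 of the counts in shRNA mCsnk2a1, 0.514% ± 0.0292 in shRNA Control, 0.457% ± 0.0645 in pcDNA4c mCsnk2a1 and 0.407% ± 0.0241 in pcDNA4c Control (SD, n = 3 each).

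Per length, the most abundant member was Atp5mpl, a small proteolipid associated with the ATP synthase, at a mean of 785 TPM over the 12 libraries and rank 95 of all genes. Cox6c, a small membrane subunit of cytochrome c oxidase, followed at 434 TPM. Atp5h, subunit d of the stalk that holds the ATP synthase head in place, averaged 235 TPM, and Uqcrb, a small subunit of complex III beside the ubiquinone site, averaged 156 TPM. In complex I the means ran over more than 1 order of magnitude, with Ndufv3 (an accessory subunit of the NADH-oxidising arm) at 114 TPM, Ndufc1 at 103 TPM and Ndufs5 at 97.7 TPM at the top and Ndufa9 at 9.90 TPM at the bottom. In complex III Uqcrb was followed by Uqcrh, the acidic hinge protein next to cytochrome c1, at 106 TPM and Uqcr11 at 85.7 TPM, and Uqcrfs1, the Rieske iron-sulfur protein, was lowest at 10.9 TPM. In complex IV Cox6c was followed by Cox4i1 at 120 TPM and Cox8a at 113 TPM, and Cox7a1 was the lowest with any count, at 0.0630 TPM. In complex V Atp5mpl and Atp5h were followed by Atp5k, subunit e of the membrane part, at 121 TPM, and ENSMUSG00000116933 was lowest at 0.349 TPM. Means over few cells can rest on 1 library: Ndufc1 was at 397 TPM in shRNA mCsnk2a1 2 and between 10.3 and 267 TPM in the other 11.

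**Figure D1:**
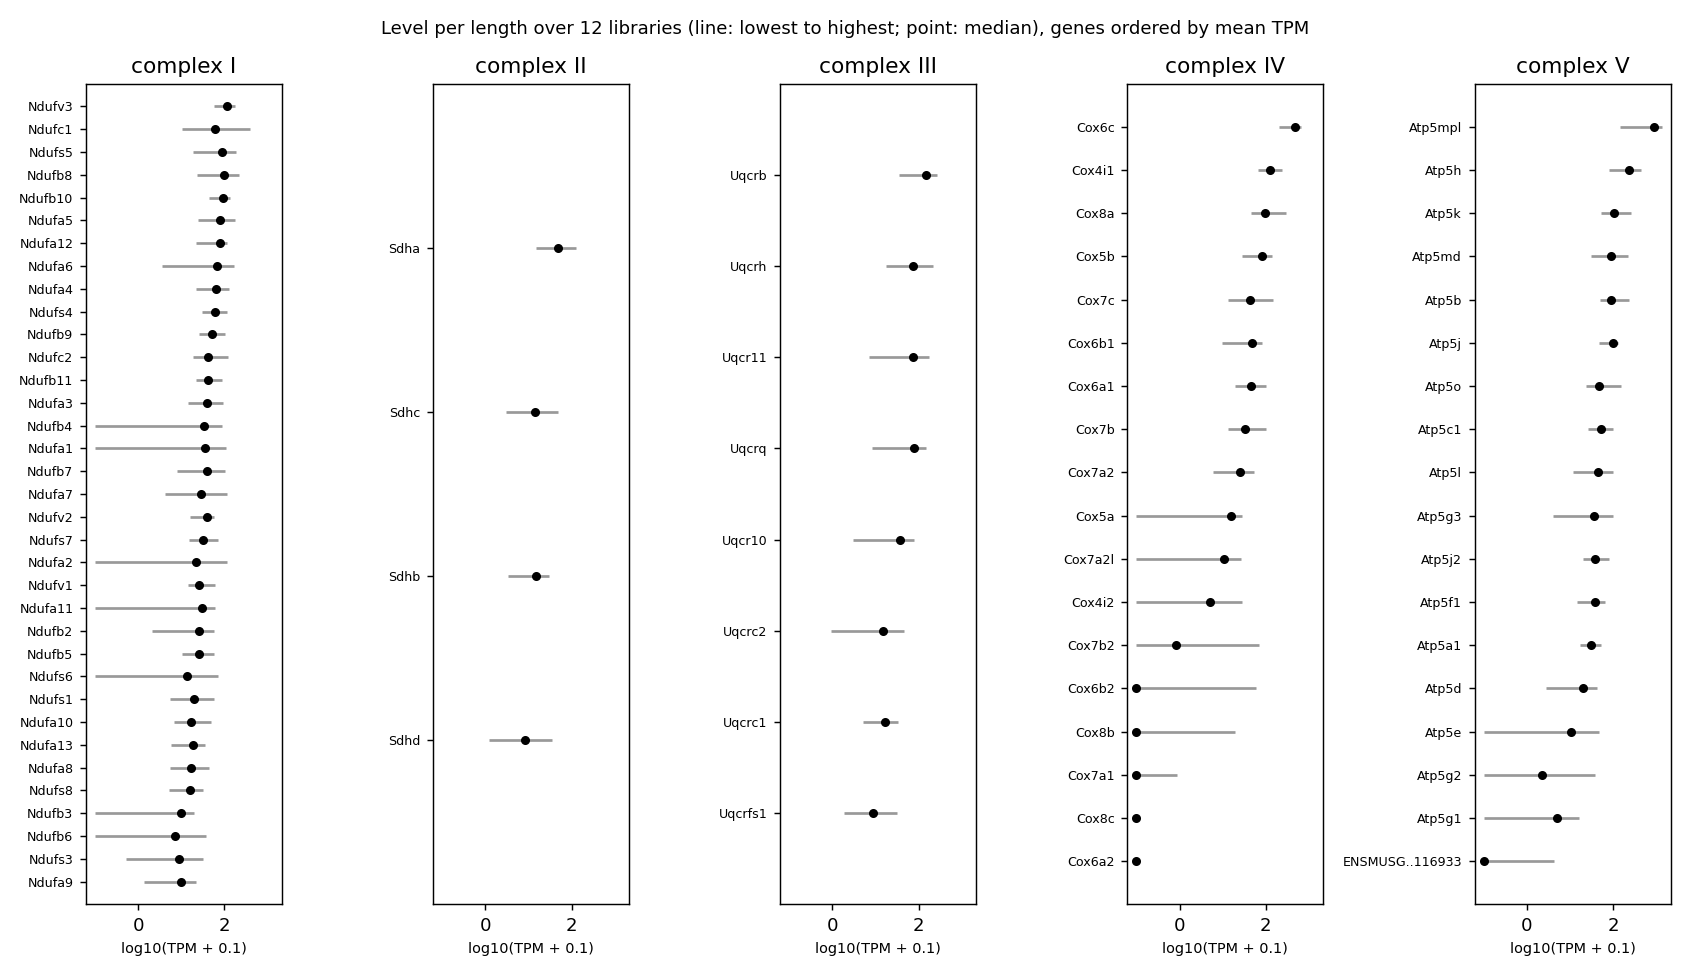
Level per length of 83 of the 84 members in 5 panels, complexes I to V. The x axis is log10(TPM + 0.1), lines run from the lowest to the highest of the 12 libraries, points are medians and genes are ordered by mean TPM. Atp5mpl, at a mean of 785 TPM, stands above all other members, and the isoforms Cox6a2 and Cox8c lie at 0.

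The 4 genes of complex II, which oxidises succinate and also serves the tricarboxylic acid cycle, had mean levels of 10.4 to 52.5 TPM. Sdha, the flavoprotein that carries the active site, was at 56.9, 34.0 and 93.0 TPM in shRNA mCsnk2a1, 85.2, 43.1 and 52.9 TPM in shRNA Control, 21.0, 127 and 14.9 TPM in pcDNA4c mCsnk2a1 and 52.2, 29.8 and 20.8 TPM in pcDNA4c Control. Sdhb, the iron-sulfur subunit, lay between 3.33 and 29.7 TPM over the 12 libraries. The membrane anchors Sdhc and Sdhd lay between 2.88 and 49.6 TPM and between 1.15 and 35.8 TPM. Sdha was above the other 3 in mean level, at 52.5 TPM over the 12 libraries, and its range overlapped theirs. In CPM, Sdhb and Sdhd were higher without overlap in pcDNA4c mCsnk2a1, and both were chosen after their values were seen. Sdhb was at 57.7, 36.7 and 47.3 CPM in pcDNA4c mCsnk2a1, against 8.86, 16.5 and 31.0 CPM in pcDNA4c Control, a difference of 1.33 (SE 0.98, edgeR adjusted p = 0.793). Sdhd was at 24.9, 42.9 and 23.8 CPM in pcDNA4c mCsnk2a1, against 11.8, 9.50 and 12.7 CPM in pcDNA4c Control, a difference of 1.43 (SE 1.20, edgeR adjusted p = 0.855). In knockdown all 4 genes overlapped between the groups.

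Several subunits of complexes IV and V exist as paralogous isoforms. Several sets of complex IV have 1 ubiquitous form and others known from heart, skeletal muscle, lung or testis. The ubiquitous isoform was the highest of its set in all 12 libraries for Cox4i1, Cox6a1, Cox6b1, Cox7b and Cox8a. Cox4i1 held 94.2% of the mean TPM of its pair, and Cox4i2, best known from lung, was detected in 7 libraries. Cox7a2 was the highest of Cox7a1, Cox7a2 and Cox7a2l in 11 libraries and held 70.2% of the mean TPM of the set. Cox6b2, known from testis, had counts in 2 libraries, at 13.9 and 29.6 CPM in shRNA mCsnk2a1 1 and 3 and 0 in the other 10. With 3 counts over shRNA Control as the floor, its mean in shRNA mCsnk2a1 was at least 26.0-fold higher, with 120 counts in 2 of 3 libraries. It was too low for the test. Cox8b had 11 counts, all in shRNA Control 3.

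Subunit c of the ATP synthase, which forms the proton-driven ring, comes from Atp5g1, Atp5g2 and Atp5g3. The last 78 codons of the 3 genes, read from the GENCODE M21 transcripts, encode the same residues, so the mature protein does not tell which gene made it, while the RNA does. Over those 234 coding bases Atp5g1 differed from Atp5g3 at 50 positions and Atp5g2 at 53. The sequences below are the 90 coding bases before the stop codon on GRCm38, read on the coding strand 5′ to 3′ (chr11:96073107-96073196, minus strand; chr15:102663017-102663106, minus strand; chr2:73908596-73908685, minus strand). They are shown because they separate the transcripts whose levels follow, and capitals mark the bases that differ from Atp5g3.
Atp5g1: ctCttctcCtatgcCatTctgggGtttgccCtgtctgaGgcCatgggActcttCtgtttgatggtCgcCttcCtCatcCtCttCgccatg
Atp5g2: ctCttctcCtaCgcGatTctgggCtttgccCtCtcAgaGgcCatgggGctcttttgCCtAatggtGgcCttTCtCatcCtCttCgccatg
Atp5g3: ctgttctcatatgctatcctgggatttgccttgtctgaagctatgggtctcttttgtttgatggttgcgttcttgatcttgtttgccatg
Atp5g1 differed from Atp5g3 at 17 of these 90 bases and Atp5g2 at 23. Atp5g3 held 77.2% of the mean TPM of the 3 genes, Atp5g2 12.7% and Atp5g1 10.1%. Atp5g3 was the highest of the 3 in 11 libraries, with a range of 4.09 to 101 TPM, and Atp5g2 was the least widely detected, in 7 libraries. The library in which Atp5g3 was not the highest was pcDNA4c mCsnk2a1 2, at 4.09 TPM against 4.35 TPM for Atp5g1 and 0 for Atp5g2.

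With knockdown, most subunit genes had higher values in shRNA mCsnk2a1 than in shRNA Control, but none passed the test. Of the 77 members that passed the filter on low counts, 55 had a log2 difference above 0, against 48.9% of all 20267 genes tested. Their median difference was 0.38, against -0.03 for all genes tested. In edgeR 0 members had an adjusted p under 0.05, against 0% of all genes tested, and in DESeq2 and limma voom 0 members passed too. At an unadjusted p under 0.05, 2 members were higher and 0 lower, against 3.23% and 5.1% of the genes tested. The 7 members that the filter removed were Cox6a2, Cox6b2, Cox7a1, Cox7b2, Cox8b, Cox8c and ENSMUSG00000116933.

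The summed level of all 84 members was 7672, 6034 and 7515 CPM in shRNA mCsnk2a1, against 5233, 4910.0 and 4634 CPM in shRNA Control. The 3 libraries with the hairpin against Csnk2a1 lay above the 3 controls, and shRNA mCsnk2a1 2 was the nearest to them. The log2 ratio of the group means was 0.52. Complex I gave 2386 ± 94.0 CPM in shRNA mCsnk2a1 and 1769 ± 162 CPM in shRNA Control, and complex V gave 2524 ± 526 CPM and 1631 ± 124 CPM in the same groups (SD, n = 3 each). In CPM, sums of complexes I, III, IV and V did not overlap between the groups. Those of complex II did, at 213 to 289 CPM in shRNA mCsnk2a1 and 119.7 to 297 CPM in shRNA Control. Per length, the sums were 6696 ± 437 TPM in shRNA mCsnk2a1 and 5995 ± 514 TPM in shRNA Control (SD, n = 3 each). The log2 ratio was 0.16 on that scale, and the groups overlapped, at 6285 to 7155 TPM and 5402 to 6314 TPM. Complexes I to IV overlapped too, with complex I means of 1963 TPM in shRNA mCsnk2a1 and 1980 TPM in shRNA Control. Complex V stayed apart, at 2402 to 2712 TPM and 1722 to 2294 TPM in the same groups. TPM and CPM differ here nearly by 1 factor per library: over 8021 genes above 0 in all libraries, 93.2% of values lay within 0.05 (log2) of their library's factor. Relative to CPM, TPM moves log2 differences nearly alike for all genes, by -0.39 in knockdown, 0.36 in overexpression and 0.59 between the controls (log2).

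**Figure D2:**
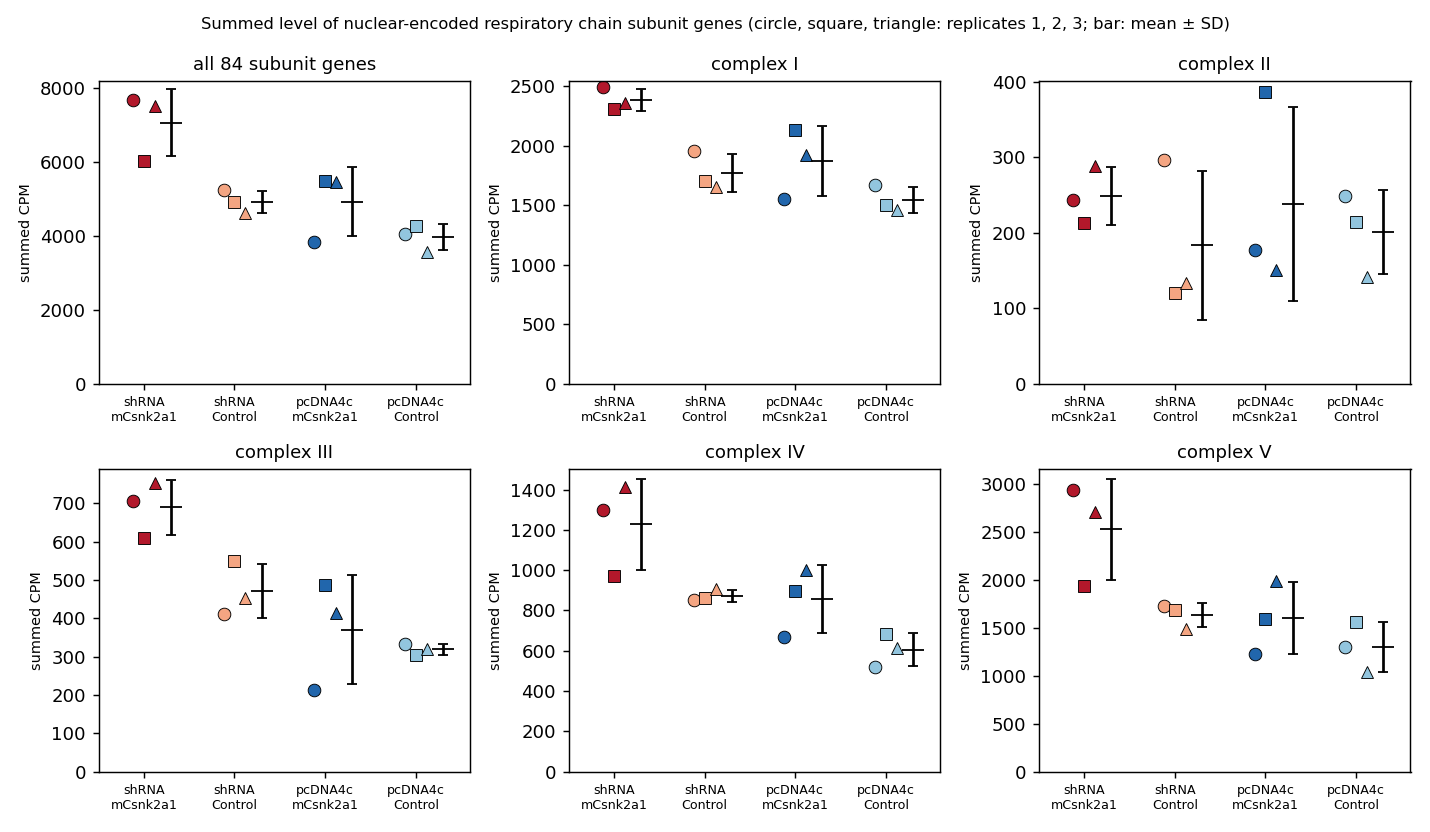
Summed TMM-scaled CPM of all 84 members and of each complex (y axes, from 0) in the 4 groups (x axes). Points are libraries and bars are means with SD. The 3 shRNA mCsnk2a1 libraries sum to between 6034 and 7672 CPM over all members, above the 3 shRNA Control libraries, and pcDNA4c mCsnk2a1 1 at 3846 CPM lies below the other libraries of its group.

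Rod markers also had higher values in shRNA mCsnk2a1, with 11 of 11 log2 differences above 0 and a median of 0.92. In edgeR 0 of the rod markers passed the test and 6 had an unadjusted p under 0.05, against 3.23% of the genes tested. The sum of the members divided by that of the rod markers was 0.60 ± 0.12 in shRNA mCsnk2a1 and 0.86 ± 0.12 in shRNA Control (SD, n = 3 each), without overlap. Müller glia markers, 7 of 7 detected in every library, summed to 906 to 1257 CPM in shRNA mCsnk2a1 and 345 to 527 CPM in shRNA Control. Bipolar cell markers, 6 of 6 detected in every library, summed to 647 to 1768 CPM and 404 to 570.4 CPM in the same groups. By log2 difference 5 of these 6 were higher in shRNA mCsnk2a1 and 1 lower. The lower marker, Cabp5, was at 55.6, 60.0 and 68.1 CPM in shRNA mCsnk2a1, against 68.4, 218 and 70.9 CPM in shRNA Control, without overlap. Ganglion cell markers summed to 76.9 to 115 CPM and 19.6 to 53.9 CPM in the same groups. In at least 1 library, 5 of 5 were detected in shRNA mCsnk2a1 and 4 of 5 in shRNA Control, where Slc17a6 was at 0. By log2 difference, 2 of the 3 ganglion markers tested were higher in shRNA mCsnk2a1 and 1 lower. Macrophage and microglia markers, 6 of 11 and 8 of 11 detected in at least 1 library, summed to 10.2 to 37.9 CPM and 58.9 to 79.4 CPM. By log2 difference 3 of these 11 were higher in shRNA mCsnk2a1 and 7 lower. None of these ranges of summed levels overlapped. The part of depth and of these markers in the members' levels was not tested.

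In single genes, 17 members had all 3 shRNA mCsnk2a1 libraries above all 3 shRNA Control libraries and 0 had them below, against 5.61% and 6.68% of the genes tested. Of these, 6 belong to complex I (among them Ndufb6, Ndufb8, Ndufb9, Ndufv1 and Ndufv2), 2 to complex III (Uqcrb and Uqcrq), 4 to complex IV (Cox5b, Cox6a1, Cox6b1 and Cox8a) and 5 to complex V (Atp5c1, Atp5d, Atp5h, Atp5j and Atp5mpl). Ndufv1 and Ndufv2, with Ndufs1, form the NADH-oxidising tip of complex I, and Atp5j is coupling factor 6 of the peripheral stalk. The list was formed after the values were seen. On the TPM scale 5 members were higher without overlap and 1 lower, against 3.15% and 10.1% of the genes tested, so the count depends on the factor by which libraries are scaled. In CPM, without shRNA mCsnk2a1 2, the higher count was 27, against 10.2% of the genes tested, since 2 libraries separate from 3 more easily.

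Ndufb9, an accessory subunit of the membrane arm of complex I (ENSMUSG00000022354, chr15:58933756-58939488 on GRCm38), was at 110.1, 111 and 119 CPM in shRNA mCsnk2a1, against 22.8, 51.2 and 34.6 CPM in shRNA Control. Its 3 hairpin libraries lay close together and above the controls, by 1.65 (SE 0.68, edgeR adjusted p = 0.598). Atp5c1, the gamma subunit that forms the rotating stalk of the ATP synthase, was at 233, 139.7 and 179.7 CPM in shRNA mCsnk2a1, against 103, 88.7 and 56.7 CPM in shRNA Control. The groups did not overlap, and the difference was 1.15 (SE 0.57, edgeR adjusted p = 0.600). A pseudogene, Atp5c1-ps, held 85 counts in all against 3543 for the gene. Atp5mpl (chr12:111961375-111966977) was at 489, 546 and 483 CPM in shRNA mCsnk2a1, against 318, 313 and 205 CPM in shRNA Control. Again the groups did not overlap, and the difference was 0.86 (SE 0.45, edgeR adjusted p = 0.615).

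Members with lower values in shRNA mCsnk2a1 overlapped with the controls without exception. Uqcrfs1 was at 12.0, 27.7 and 11.4 CPM in shRNA mCsnk2a1, against 11.4, 52.4 and 69.2 CPM in shRNA Control, a difference of -1.38 (SE 1.17, edgeR adjusted p = 0.871). Atp5o, which joins the stalk to the head of the ATP synthase, was at 91.4 ± 26.8 CPM in shRNA mCsnk2a1 and 121 ± 34.1 CPM in shRNA Control (SD, n = 3 each). Atp5md, a small subunit of the ATP synthase membrane part, was at 43.8 ± 29.9 CPM and 62.3 ± 25.4 CPM in the same groups (SD, n = 3 each). The differences were -0.40 for Atp5o (SE 0.62, edgeR adjusted p = 0.993) and -0.51 for Atp5md (SE 0.82, edgeR adjusted p = 0.995). Cox4i2, at 4.13, 0 and 13.9 CPM in shRNA mCsnk2a1 against 6.22, 12.5 and 27.2 CPM in shRNA Control, differed by -1.34 (SE 2.18, edgeR adjusted p = 0.996).

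With overexpression, too, most subunit genes had higher values in pcDNA4c mCsnk2a1 than in pcDNA4c Control, and none passed the test. Of the 77 tested members 50 had a log2 difference above 0, against 45.1% of all genes tested, and their median was 0.34, against -0.16 for all genes tested. In edgeR 0 members had an adjusted p under 0.05, against 0.0987% of the genes tested (20 genes: 0.0641% higher and 0.0345% lower), and 0 passed in DESeq2 and in limma voom. At an unadjusted p under 0.05, 2 members were higher and 0 lower, against 2.15% and 6.58% of the genes tested. By complex the medians were 0.33 for I, 0.82 for II, near 0 for III, 0.52 for IV and 0.04 for V, where the knockdown medians had been 0.22, 0.67, 0.50, 0.62 and 0.75 in the same order. No test compared the complexes.

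**Figure D3:**
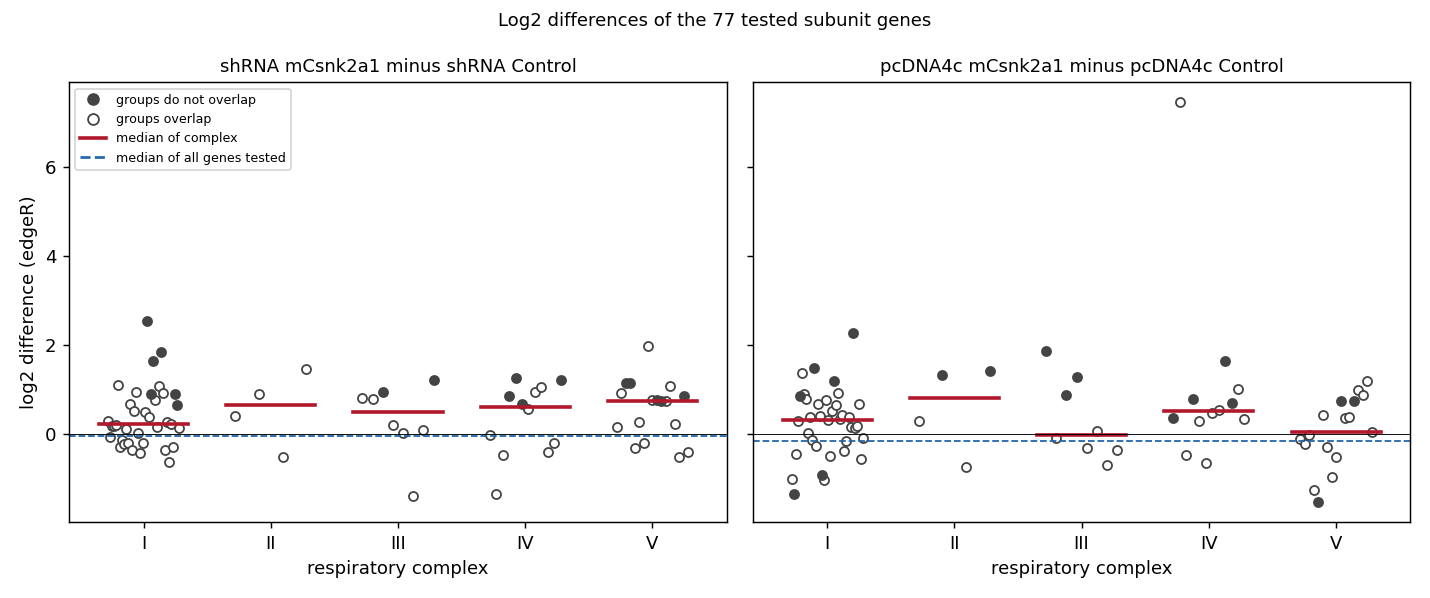
Log2 differences (y axis, edgeR) of the 77 tested members by complex (x axis), shRNA mCsnk2a1 minus shRNA Control on the left and pcDNA4c mCsnk2a1 minus pcDNA4c Control on the right. Filled points are genes whose groups do not overlap, red bars are medians of a complex and the dashed line is the median of all genes tested. Most points lie above 0 in both panels. The highest point on the right is Cox4i2, whose fitted value is no measure of size because pcDNA4c Control has no count.

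Summed over all 84 members the level was 3846, 5489.5 and 5468 CPM in pcDNA4c mCsnk2a1, against 4064, 4267 and 3578 CPM in pcDNA4c Control. In CPM the groups overlapped, because pcDNA4c mCsnk2a1 1 lay within the control range while the other 2 lay above it. The log2 ratio of the means was 0.31, and without that library it was 0.46. That library was also the lowest of its group in rod markers, at 4617 CPM against 10322 and 10685 CPM in the other 2. The sums of 4 other marker lists did not overlap between the groups of this arm. Bipolar cell markers, 6 of 6 detected in every library, summed to 725 to 860.4 CPM in pcDNA4c mCsnk2a1 and 145 to 258 CPM in pcDNA4c Control. Müller glia markers, 7 of 7 detected in every library, summed to 437 to 561 CPM and 1169 to 1522 CPM in the same groups. Of these, Apoe alone was at 75.2, 108 and 119 CPM in pcDNA4c mCsnk2a1, against 1231, 1096 and 926 CPM in pcDNA4c Control. By log2 difference 5 of the 7 were higher in pcDNA4c mCsnk2a1 and 2 lower, with a median of 0.73. Cone markers summed to 11.4 to 24.1 CPM and 70.4 to 114 CPM, with Opn1mw and Opn1sw at 0 in pcDNA4c mCsnk2a1, and macrophage and microglia markers to 36.3 to 83.5 CPM and 2702 to 3226 CPM. Their part in the members' levels was not tested. Per length, the sums were 5000 ± 933 TPM in pcDNA4c mCsnk2a1 and 2798 ± 232 TPM in pcDNA4c Control (SD, n = 3 each). The log2 ratio was 0.84, and on that scale the groups did not overlap, at 3938 to 5685 TPM and 2605 to 3056 TPM.

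In single genes, 15 members were higher without overlap in pcDNA4c mCsnk2a1 and 3 lower, against 3.73% and 11.8% of the genes tested. Those higher were Ndufa8, Ndufa13, Ndufb8 and Ndufs6 of complex I, Sdhb and Sdhd of complex II, Uqcr10, Uqcrb and Uqcrc1 of complex III, Cox4i1, Cox5b, Cox7a2l and Cox7b of complex IV, and Atp5h and Atp5k of complex V, a list formed after the values were seen. Uqcrc1 is a core protein of complex III, and Cox7a2l is known for its place where complexes III and IV join. On the TPM scale the counts were 22 higher and 1 lower, against 6.36% and 9%. In CPM, without pcDNA4c mCsnk2a1 1, the counts were 27 and 6, against 9.36% and 22%. The lower count in CPM was 6, 7 and 6 without pcDNA4c mCsnk2a1 2, pcDNA4c mCsnk2a1 3 and pcDNA4c Control 3. Over the genes tested the shares lower were then 18.0%, 18.9% and 16.3%.

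Atp5mpl was at 214, 344 and 347 CPM in pcDNA4c mCsnk2a1, against 112, 216 and 67.6 CPM in pcDNA4c Control. The groups overlapped by 1 library on each side, and the difference of 1.19 had the smallest p of the members (SE 0.45, edgeR adjusted p = 0.568). Cox4i2 was at 0, 13.5 and 14.1 CPM in pcDNA4c mCsnk2a1 and had no count in pcDNA4c Control. With 3 counts over that group as the floor, its mean was at least 17.9-fold higher (edgeR adjusted p = 0.568), with 85 counts in 2 of 3 libraries. Ndufb8, an accessory subunit of the membrane arm of complex I (chr19:44548572-44555440), was at 107, 206 and 66.8 CPM in pcDNA4c mCsnk2a1, against 58.5, 56.5 and 50.4 CPM in pcDNA4c Control. It was higher without overlap, by 1.20 (SE 0.67, edgeR adjusted p = 0.614). Atp5h (chr11:115415689-115419962) was at 143, 183 and 220.2 CPM in pcDNA4c mCsnk2a1, against 117, 89.5 and 119.7 CPM in pcDNA4c Control. It was likewise higher in each library, by 0.75 (SE 0.45, edgeR adjusted p = 0.665).

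The 3 members lower without overlap were Ndufa10, Ndufb2 and Atp5e, of which Atp5e was chosen for mention after its values were seen. Ndufa10, an accessory subunit of complex I related to nucleoside kinases (chr1:92439010-92473860), was at 74.8, 19.1 and 44.6 CPM in pcDNA4c mCsnk2a1, against 90.5, 85.0 and 173 CPM in pcDNA4c Control. The difference was -1.33 (SE 0.78, edgeR adjusted p = 0.641). Ndufb2, another accessory subunit of complex I, was at 30.2, 36.0 and 31.6 CPM in pcDNA4c mCsnk2a1, against 69.4, 38.5 and 77.0 CPM in pcDNA4c Control, a difference of -0.92 (SE 0.93, edgeR adjusted p = 0.917). Atp5e, the epsilon subunit of the central stalk, was at 6.56, 0 and 6.38 CPM in pcDNA4c mCsnk2a1, against 12.3, 13.5 and 11.6 CPM in pcDNA4c Control. For Atp5d, the delta subunit of the same stalk, the groups overlapped at 13.2 ± 8.07 CPM in pcDNA4c mCsnk2a1 and 31.5 ± 12.1 CPM in pcDNA4c Control (SD, n = 3 each), a difference of -1.26 (SE 1.00, edgeR adjusted p = 0.828). Uqcrh also overlapped, at 34.1 ± 18.9 CPM and 55.4 ± 12.9 CPM in the same groups (SD, n = 3 each), a difference of -0.70 (SE 0.67, edgeR adjusted p = 0.906); 2 named Uqcrh pseudogenes held 99 counts in all against 2239 for the gene.

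The 2 arms share no library, and 4 genes were higher without overlap in both, against 0.395% of the genes tested: Atp5h, Cox5b, Ndufb8 and Uqcrb. They make up 23.5% of the 17 genes of the knockdown set and 26.7% of the 15 genes of the overexpression set. No member was higher without overlap in one arm and lower in the other. Cox5b and Uqcrb were chosen after their values were seen. Cox5b, a subunit on the matrix side of cytochrome c oxidase (chr1:36691449-36693681), was at 119, 177 and 180.1 CPM in shRNA mCsnk2a1, against 65.8, 91.1 and 106 CPM in shRNA Control. It was at 177, 97.7 and 122 CPM in pcDNA4c mCsnk2a1, against 47.7, 88.5 and 93.6 CPM in pcDNA4c Control. The differences were 0.86 in knockdown (SE 0.55, edgeR adjusted p = 0.733) and 0.79 in overexpression (SE 0.55, edgeR adjusted p = 0.764), and in each arm the lowest library with Csnk2a1 construct was close to the highest control. Uqcrb (chr13:66900617-66905378) was at 192, 205 and 181 CPM in shRNA mCsnk2a1, against 67.9, 139.9 and 93.6 CPM in shRNA Control. It was at 84.4, 131 and 108 CPM in pcDNA4c mCsnk2a1, against 66.4, 77.0 and 30.5 CPM in pcDNA4c Control. Its 3 values in shRNA mCsnk2a1 were the highest of the 12, and the differences were 0.94 (SE 0.56, edgeR adjusted p = 0.683) in knockdown and 0.89 (SE 0.56, edgeR adjusted p = 0.695) in overexpression. Atp5h was at 265, 293 and 414 CPM in shRNA mCsnk2a1, against 239, 204 and 128 CPM in shRNA Control. Ndufb8 was at 108, 132 and 102 CPM in shRNA mCsnk2a1, against 83.5, 17.9 and 81.7 CPM in shRNA Control.

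**Figure D4:**
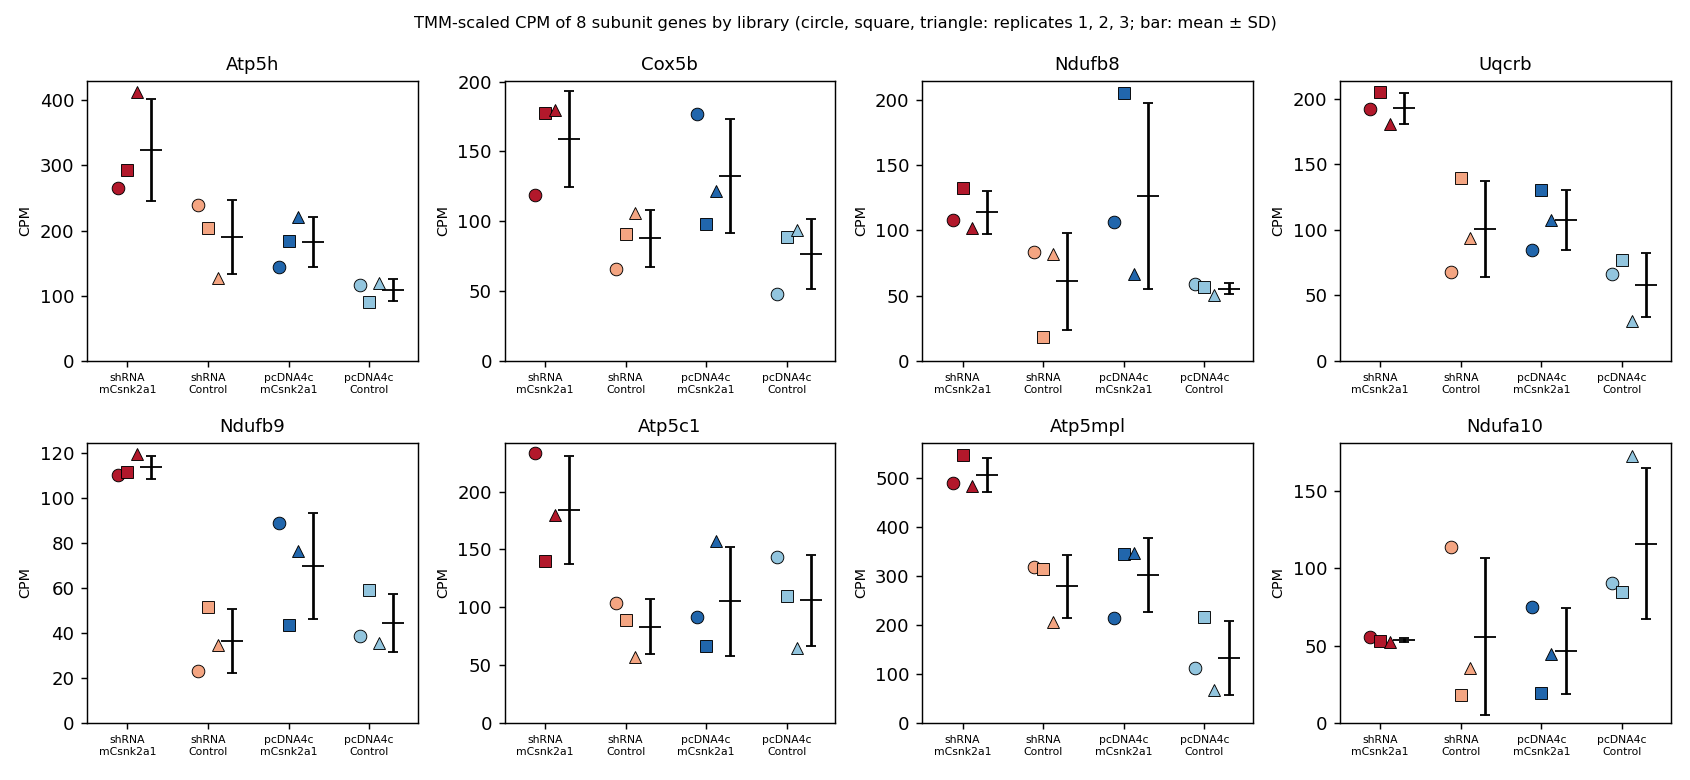
TMM-scaled CPM (y axes, from 0) of 8 members by library in the 4 groups (x axes), with means and SD as bars. Atp5h, Cox5b, Ndufb8 and Uqcrb are higher without overlap in both arms, Ndufb9 and Atp5c1 are in knockdown, and Ndufa10 is lower without overlap in pcDNA4c mCsnk2a1. The Atp5mpl groups of the overexpression arm overlap.

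Promoters of these 4 genes are given as a description only, since the genes were picked by their values in both arms. RefSeq windows of 300 bases (250 before to 50 after a gene's start, GRCm38.p6) were matched by symbol and chromosome for 67 members, and for Atp5h, Cox5b and Ndufb8 but not Uqcrb among the 4. The windows are given 5′ to 3′ on the gene's strand (chr11:115419870-115420169, minus strand; chr1:36691237-36691536, plus strand; chr19:44555393-44555692, minus strand). Capitals mark matches on either strand to GCGCANGCG (from the site of NRF1, nuclear respiratory factor 1), CCGGAAGT (the site of ETS factors such as GABP), AAGATGGC (YY1), GGGCGG (Sp1) and TATAAA (the TATA box).
Atp5h: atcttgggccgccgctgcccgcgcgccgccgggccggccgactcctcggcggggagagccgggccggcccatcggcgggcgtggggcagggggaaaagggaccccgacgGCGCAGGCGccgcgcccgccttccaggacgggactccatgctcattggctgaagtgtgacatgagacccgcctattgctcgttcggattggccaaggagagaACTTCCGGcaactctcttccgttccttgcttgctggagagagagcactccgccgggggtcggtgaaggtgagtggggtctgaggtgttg
Cox5b: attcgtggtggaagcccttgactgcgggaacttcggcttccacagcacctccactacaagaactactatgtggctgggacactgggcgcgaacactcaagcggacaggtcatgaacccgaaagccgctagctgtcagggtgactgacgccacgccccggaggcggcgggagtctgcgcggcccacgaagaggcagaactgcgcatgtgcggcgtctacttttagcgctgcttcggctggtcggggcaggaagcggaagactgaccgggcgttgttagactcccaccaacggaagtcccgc
Ndufb8: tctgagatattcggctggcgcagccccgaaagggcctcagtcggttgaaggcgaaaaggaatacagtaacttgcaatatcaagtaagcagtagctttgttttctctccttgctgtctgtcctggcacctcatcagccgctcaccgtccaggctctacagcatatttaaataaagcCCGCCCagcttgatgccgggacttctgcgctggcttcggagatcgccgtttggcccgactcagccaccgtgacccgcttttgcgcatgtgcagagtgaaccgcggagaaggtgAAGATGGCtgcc
Counted from the first base of the window, Atp5h held the NRF1 letters from base 110 and the ETS site from base 212. Ndufb8 held the YY1 site from base 289 and an Sp1 site from base 176. Cox5b held none of these letters. Over the 67 members with a window, 20 genes (29.9%) held the NRF1 letters, against 7.03% of 27025 genes with a window. Among the 20 were Atp5c1, Atp5g3, Atp5k, Cox6a1, Ndufs5, Ndufs6, Sdha, Sdhd, Uqcr11 and Uqcrc1. The form GCGCATGCG, which is also counted under GCGCANGCG, was in 11.9% of the members and 1.95% of all genes. The YY1 letters were in 13.4% of the members and 3.19% of all genes, and the ETS letters in 7.46% and 4.31%. Sp1 letters did not separate them, at 40.3% and 38.2%, and TATAAA was in 11.9% and 15.7%. TAATCC, the site of the photoreceptor factor CRX, was in 8.96% of the members and 8.14% of all genes. Member windows had a median GC content of 57.3%, against 52.7% for all windows, and no set was matched for it. These matches describe letters in a window and were not tested.

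The overexpression effect minus the knockdown effect gave no member past the threshold in edgeR, DESeq2 or limma voom, against 0.0197% of the genes tested in edgeR (4 genes). Of the 77 members 33 were above 0 and 44 below, against 47% above 0 for all genes, with a median of -0.07. With DESeq2 size factors 43 of 77 were above 0 and the median was 0.07, so the direction of the list depends on the scaling. At an unadjusted p under 0.05, 1 member was higher (Cox4i2, whose difference has no size because pcDNA4c Control is at 0; edgeR adjusted p = 0.537) and 1 lower, against 3.19% and 5.16% of the genes tested. Below 0 were Atp5d at -2.41 (SE 1.41), Atp5b at -1.15 (SE 0.73) and Atp5c1 at -1.16 (SE 0.80), with edgeR adjusted p of 0.671, 0.698 and 0.728. Atp5b encodes the catalytic beta subunit of the ATP synthase, which was at 771, 188 and 387 CPM in shRNA mCsnk2a1, 319.9, 178 and 209.9 CPM in shRNA Control, 169, 334 and 276 CPM in pcDNA4c mCsnk2a1 and 183, 477 and 249 CPM in pcDNA4c Control. Its groups overlapped in both arms. Above 0 were Ndufs6, a zinc-binding subunit of complex I, at 2.88 (SE 2.27), Atp5md at 1.40 (SE 1.16) and Cox7b, a small subunit of complex IV, at 1.10 (SE 1.07), with edgeR adjusted p of 0.792, 0.814 and 0.868. Ndufs6 illustrates the spread, at 45.1, 28.2 and 30.9 CPM in pcDNA4c mCsnk2a1 and 1.97, 9.00 and 10.5 CPM in pcDNA4c Control, beside 12.0, 0 and 21.8 CPM in shRNA mCsnk2a1 and 1.56, 42.9 and 7.37 CPM in shRNA Control.

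The 2 control groups differ in the kind of plasmid, and both are labelled as controls. Müller glia markers summed to 345 to 527 CPM in shRNA Control and 1169 to 1522 CPM in pcDNA4c Control. Bipolar cell markers summed to 404 to 570.4 CPM and 145 to 258 CPM, and macrophage and microglia markers to 58.9 to 79.4 CPM and 2702 to 3226 CPM. By log2 difference 5 of 7, 5 of 6 and 0 of 11 were higher in shRNA Control. Sums of the other marker lists overlapped. The part of these markers was not tested. In shRNA Control against pcDNA4c Control 55 of 77 members had a log2 difference above 0, against 50% of all genes tested, with a median of 0.32, against 0.00 for all genes. In edgeR 0 members passed, against 0.0691% of the genes tested (14 genes: 0.0148% higher and 0.0543% lower), and 0 passed in DESeq2 and limma voom; at an unadjusted p under 0.05, 3 were higher and 0 lower, against 1.44% and 2.77%. Groups did not overlap for 8 higher members and 1 lower, against 5.13% and 8.56%. On the TPM scale 32 were higher and 1 lower, against 11.5% and 4.6%. In CPM, the count higher was 16, 18 and 15 without shRNA Control 1, 2 and 3 and 14 without pcDNA4c Control 2. Over the genes tested the shares higher were then 11.3%, 10.7%, 10.2% and 7.84%. The lower count in CPM was 4, 5 and 2 without shRNA Control 1, 2 and 3. It was 2, 5 and 4 without pcDNA4c Control 1, 2 and 3, and the shares lower in all these settings were 12.8% to 15.2%. The summed level of the members was 4634 to 5233 CPM in shRNA Control and 3578 to 4267 CPM in pcDNA4c Control, without overlap. The log2 ratio of these means was 0.31. Each arm shares a control group with this comparison.

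The spread within groups was wide for most members. The median coefficient of variation among the 3 libraries of a group was 0.433 in shRNA mCsnk2a1, 0.437 in shRNA Control, 0.530 in pcDNA4c mCsnk2a1 and 0.378 in pcDNA4c Control. The lowest was 0.0255, for Ndufs1 in pcDNA4c Control at 93.0, 89.5 and 88.6 CPM, and the highest was 1.73, reached where a gene had counts in 1 library of a group, as Atp5g2 in shRNA mCsnk2a1. Of the members' summed TPM, complex V held 38.2% ± 0.232 in shRNA mCsnk2a1, 34.6% ± 2.45 in shRNA Control, 35.7% ± 2.49 in pcDNA4c mCsnk2a1 and 31.1% ± 3.62 in pcDNA4c Control (SD, n = 3 each). It was higher without overlap in shRNA mCsnk2a1, and the shares of complexes I to IV overlapped in both arms. Atp5mpl alone held 18.1% ± 2.90, 14.4% ± 2.64, 15.8% ± 0.924 and 9.39% ± 4.46 in the same group order (SD, n = 3 each), without overlap in either arm.

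Genes that work with the subunits were counted from the same fit. Of 53 assembly factors and other subunits outside the rule 51 were tested. In knockdown 29 were above 0 with a median of 0.34, and in overexpression 24 with a median of -0.21. The tricarboxylic acid cycle genes, 13 tested, had 9 above 0 with a median of 0.38 in knockdown and 6 with a median of -0.28 in overexpression. The regulators of nuclear mitochondrial genes, which include Nrf1, Gabpa, Ppargc1a and Yy1, had 7 of 13 above 0 in each arm, with medians of 0.24 and 0.19 for knockdown and overexpression. In edgeR 0 genes of these 3 lists passed in either arm. At an unadjusted p under 0.05 in overexpression, the assembly list had 1 higher and 2 lower and the cycle had 1 lower. Over all genes tested the shares were 2.15% higher and 6.58% lower. In knockdown the regulators had 2 higher at an unadjusted p under 0.05, against 3.23% of the genes tested. Both were chosen after their values were seen: Polrmt, the mitochondrial RNA polymerase, at 4.83 (SE 1.38, edgeR adjusted p = 0.598) and Ppargc1b, a coactivator, at 2.26 (SE 0.92, edgeR adjusted p = 0.598).

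The subunits encoded by mitochondrial DNA are the partners of the members in complexes I, III, IV and V. In overexpression all 12 tested were above 0 with a median of 1.26, and 5 rose, against 0.0641% of the genes tested: mt-Co1, mt-Cytb, mt-Nd2, mt-Nd4 and mt-Nd5. The largest of these was mt-Nd2, at 2.01 (SE 0.29, edgeR adjusted p = 0.00376). In knockdown 10 of 12 were above 0 with a median of 0.22, and 0 passed in edgeR, with 0 at an unadjusted p under 0.05. In the difference between the arms 12 of 12 were above 0, of which 0 passed in edgeR. Of these, 7 had an unadjusted p under 0.05, against 3.19% of the genes tested. Over the 13 genes the summed level was 22099, 29215 and 31152 CPM in pcDNA4c mCsnk2a1, against 11814, 12433 and 9054 CPM in pcDNA4c Control, and 12412, 15294 and 14777 CPM in shRNA mCsnk2a1, against 13638, 12215 and 12251 CPM in shRNA Control.

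The ratio of mitochondrially encoded to nuclear-encoded subunits in TPM was 1.30, 1.76 and 1.53 in shRNA mCsnk2a1, against 1.95, 1.87 and 2.08 in shRNA Control, so in TPM it was lower without overlap, by a log2 ratio of means of -0.36. On estimated counts the knockdown groups overlapped, at 1.62, 2.54 and 1.97 in shRNA mCsnk2a1 against 2.61, 2.49 and 2.64 in shRNA Control, a log2 ratio of -0.34. In TPM it was 4.62, 3.96 and 4.13 in pcDNA4c mCsnk2a1, against 2.55, 2.38 and 2.24 in pcDNA4c Control, higher without overlap, by 0.83, and the groups did not overlap on estimated counts either. The 2 control groups also separated in TPM, with shRNA Control below pcDNA4c Control, and overlapped on estimated counts. Within complex I the ratio in TPM separated the groups in the same directions, at 1.28, 1.45 and 1.26 in shRNA mCsnk2a1 against 1.49, 1.49 and 1.62 in shRNA Control, and at 3.12, 3.44 and 4.31 in pcDNA4c mCsnk2a1 against 1.68, 1.93 and 1.62 in pcDNA4c Control. In complex III, where mt-Cytb is the single mitochondrially encoded subunit, it was 8.28, 5.93 and 7.72 in pcDNA4c mCsnk2a1 against 3.06, 3.30 and 2.80 in pcDNA4c Control. In complex V it was 6.12, 5.29 and 4.25 in pcDNA4c mCsnk2a1 against 3.77, 3.15 and 3.73 in pcDNA4c Control. In complex IV the groups overlapped in both arms, and in complexes III and V they overlapped in knockdown. The kit reads total RNA, and the mean share of mitochondrial ribosomal RNA differed between the groups, at 9.46% ± 0.723 of counts in shRNA mCsnk2a1, 7.19% ± 0.212 in shRNA Control, 8.73% ± 1.32 in pcDNA4c mCsnk2a1 and 6.89% ± 0.522 in pcDNA4c Control (SD, n = 3 each). The knockdown groups did not overlap in this share. The overexpression groups did, with pcDNA4c mCsnk2a1 1 at 7.34% and pcDNA4c Control 2 at 7.37%. The part of this share, and of the markers of other cell types given above, in the ratio was not tested. No test was run on the ratio.

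**Figure D5:**
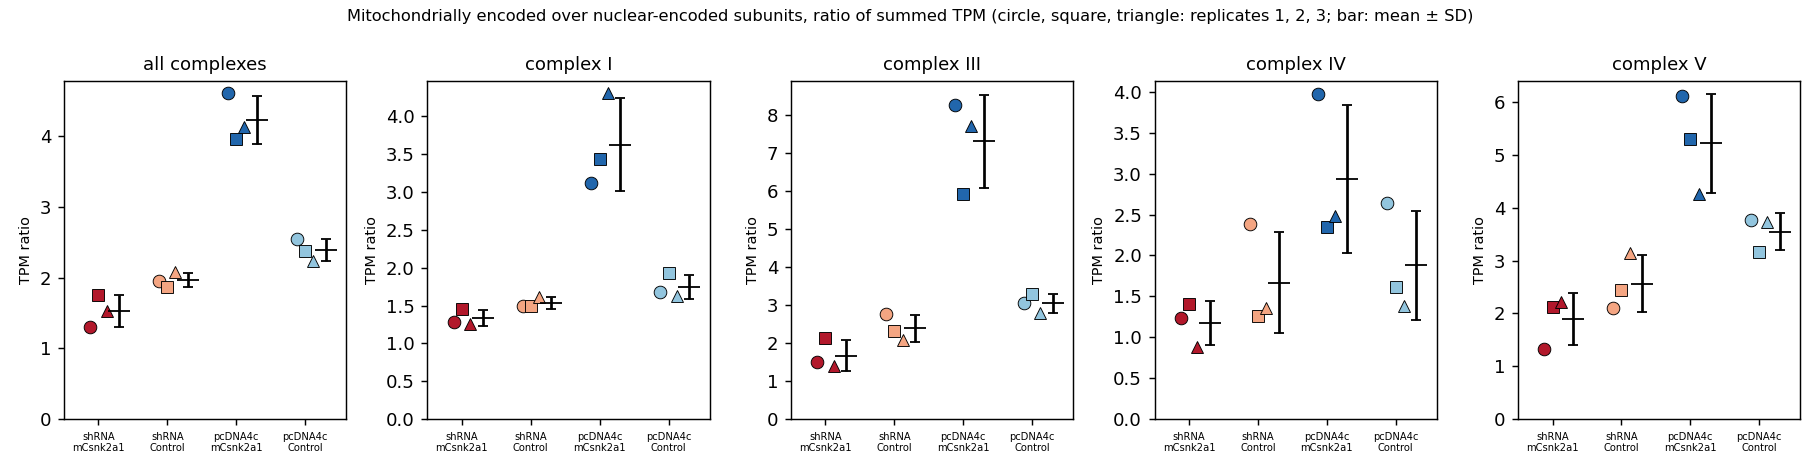
Ratio of summed TPM, mitochondrially encoded over nuclear-encoded subunits (y axes, from 0), by library in the 4 groups (x axes), over all complexes and in complexes I, III, IV and V. Bars are means with SD. Over all complexes the 3 pcDNA4c mCsnk2a1 libraries lie between 3.96 and 4.62, above the other 9, and the 3 shRNA mCsnk2a1 libraries lie between 1.30 and 1.76, below the other 9.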

How the data were processed

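Each library was made from hand-picked GFP-positive rods with a kit for small amounts of total RNA, per the labels' protocols. The gene table holds estimated counts, which the authors deposited without scaling between libraries; per the submitters' processing notes the tools were kallisto 0.45.0 and edgeR 3.28 on mm10 (annotation release: not given in the sources used here). TPM values fill the transcript table, as deposited by the authors, and 98.6% of the gene estimates of 5010 well-expressed genes equal constants times their summed TPM (within 1e-06). Another table holds a scaled signal (CPM made by the authors from the counts) for 11 libraries and served as an alternative. Gene and transcript identifiers were matched to GENCODE M21 (98.0% of genes).

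Estimated counts were rounded and tested with edgeR 4.0.16 (quasi-likelihood, TMM, filter with a minimum count of 10, 12 libraries in 1 fit, R 4.3.3) and Benjamini-Hochberg adjustment over 20267 genes at 0.05; the procedure was tested on simulated data. SEs are the log2 difference over the root of F. Alternatives were DESeq2 1.42.0, limma 3.58.1, other scalings, filters and left-out libraries. Totals of 1608926 to 3567121 counts, with a biological coefficient of variation of 1.26, limit the precision. The SEs include the spread between libraries, whereas the floors cover counting error only. The members and lists were chosen with earlier results of these data known. Genes were named by rule: the 4 members with the smallest p in each direction per comparison, the 3 highest and the lowest by mean TPM per complex, the isoform sets and complex II. Others are said to be chosen after their values were seen. A result that this rule would name is not reported here.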

Additional observations from a re-analysis of the deposited data

Results flagged for a closer look

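The ratio of mitochondrially encoded to nuclear-encoded subunit TPM lay on opposite sides of the controls in the 2 arms, with the 3 libraries of one group all below and of the other all above their controls. The log2 ratio of group means was -0.363 for shRNA mCsnk2a1 over shRNA Control (1.53 ± 0.228 and 1.97 ± 0.102, SD, n = 3 each). It was 0.826 for pcDNA4c mCsnk2a1 over pcDNA4c Control (4.24 ± 0.342 and 2.39 ± 0.154, SD, n = 3 each). On estimated counts the knockdown groups overlapped, since shRNA mCsnk2a1 2 was at 2.54 and shRNA Control 2 at 2.49, while the overexpression groups did not. This difference between the arms was not tested.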

How the results depend on the processing

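No member passed the adjusted threshold in any comparison under any alternative run. The count of all genes called did depend on the tool: knockdown gave 0 in edgeR, 183 in DESeq2, 2 in limma voom and 93 without the filter, overexpression gave 20, 249, 37 and 111, the difference gave 4, 209, 1 and 137, and the controls gave 14, 69, 12 and 71. With library size alone as scaling, the knockdown median of the members was 0.19. In knockdown 1 member was then lower without overlap and 13 higher, against 8.03% and 4.35% of the genes tested. In overexpression 9 were higher and 4 lower, against 2.97% and 13.1%. On summed TPM, the log2 ratio of the members' level was 0.16 in knockdown and 0.84 in overexpression. It was 0.68 for the difference and 1.10 between the controls. Members without overlap then numbered 5 higher and 1 lower in knockdown, against 3.15% and 10.1% of the genes tested. In overexpression 22 were higher and 1 lower, against 6.36% and 9%. Between the controls 32 were higher, against 11.5%, where DESeq2 size factors gave 13, against 6.14%. For the ratio of mitochondrially encoded to nuclear-encoded subunits on estimated counts, the log2 ratio of group means was 1.01 in overexpression. In knockdown this log2 ratio was -0.34, with overlapping groups. Leaving out 1 library at a time, the median ran from 0.31 to 0.57 in knockdown and from -0.26 to 0.13 for the difference. Members without overlap ran from 17 to 27 higher and 1 to 3 lower in knockdown, 15 to 27 higher and 4 to 7 lower in overexpression, and 11 to 18 higher and 2 to 5 lower between the controls. Over all genes tested the shares were then 8.97% to 10.8% higher and 10.5% to 12.97% lower in knockdown, 5.72% to 9.36% and 16.3% to 22.0% in overexpression, and 7.84% to 11.3% and 12.8% to 15.2% between the controls. The log2 differences of the genes named by rule kept their sign, but moved: Atp5md from -1.10 to -0.09 and Atp5o from -0.62 to -0.18 in knockdown, Uqcrh from -0.91 to -0.25 in overexpression, and Atp5b from -1.53 to -0.48 and Ndufs6 from 0.96 to 3.77 in the difference. Dropping a library lowers what it takes not to overlap; the cause of the other shifts was not tested. Alternatives for overlap and for the ratio were chosen after seeing the data. Libraries of the same number did not deviate together (correlations from -0.04 to 0.01), so the replicate block pairs only numbers; with it 0 members passed, the medians were 0.50 in knockdown and 0.33 in overexpression, and 1, 26, 9 and 18 genes were called in knockdown, overexpression, the difference and the controls.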
